A study of Gallus gallus with 2 samples.

Results

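The genes described here are the neurotransmitter receptors carried by a chicken expression array, and they were chosen by the spelling of their symbols alone. A symbol was taken if it began with the letters of a receptor family for GABA (GABR, GABBR), glutamate (GRIA, GRIN, GRIK, GRID, GRM), glycine (GLRA), acetylcholine (CHRN, CHRM), serotonin (HTR), dopamine (DRD) or noradrenaline (ADRA), followed by a digit or by a letter and a digit. This gave 53 symbols of the 28744 gene labels on the array, measured by 83 probes, and each gene was read from its brightest probe. Of the 53, 50 are receptor genes. GRINL1B, which the RefSeq gene table now calls MYZAP, and the serine peptidases HTRA2 and HTRA3 share the spelling but are not receptor subunits, and they are counted with the 53 and named apart.

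Neurotransmitter receptors are of 2 kinds. Ligand-gated channels, such as the GABA-A, glycine, AMPA, kainate, NMDA and nicotinic receptors, are rings of subunits encoded by separate genes and open when the transmitter binds. Metabotropic receptors, such as the GABA-B, metabotropic glutamate, muscarinic, dopamine, adrenergic and most serotonin receptors, act through G proteins. In the embryonic brain many of them are transcribed before synapses form, and GABA and acetylcholine are known to act on precursors and young neurons as well as at synapses.

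Isa Brown chick embryos were placed in roller culture at Hamburger-Hamilton stage HH10 and kept for 16 hours in medium with the solvent dimethyl sulfoxide (DMSO) or with 40 µM DAPT dissolved in it, and the forebrain region was collected at HH13. DAPT inhibits gamma-secretase, the protease whose cut releases the active part of Notch receptors, in every cell it reaches and for its other substrates too. Each array carried Cy3-labelled RNA from a pool of 5 dissected forebrains, which according to the series' design text included the optic vesicles and the tissue covering them, and 4 arrays were made per condition. Slide 1 held the arrays numbered 1 and 2 of both conditions, and slide 2 those numbered 3 and 4. Wherever 4 values are given for a condition below, they are those of its arrays 1, 2, 3 and 4 in that order. The labels give 2 samples with 4 arrays each and do not say which arrays shared a culture. The study's text describes 4 different sets of experiments, with the forebrains of a pool taken from a single culture. The p-values measure the spread between these arrays. Since the tissue was taken as a whole, fewer cells of a type and less RNA per cell cannot be told apart.

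Between 67.8% (DAPT array 2) and 80.8% (DAPT array 1) of the spots were well above background by the image analysis. DAPT array 2 also had the brightest negative control spots, with a median signal above the 3.74 to 6.96 of the other arrays. The differences of several genes are also given without it. The Notch target HES5 was well above background on 4 DMSO arrays and 1 DAPT array and lay at 1.98 to 2.61 with DMSO and at -5.32 to -2.28 with DAPT, on the log2 scale relative to the median of each array that is used throughout. Of 11 neuron marker genes tested, 10 had positive differences, with a median log2 difference of 1.44, and 4 passed the test over all probes (NEFM, NHLH1, TAGLN3 and CHGA), with 7 passing when slide was a block and 8 when array number was, among them ISL1, NEFL and ELAVL4 in both and STMN2 in the latter. The summed level of the list, in multiples of the array median, was 155 to 206 with DMSO and 319 to 384 with DAPT. NEFM, NHLH1, TAGLN3, CHGA, STMN2 and GAP43 of this list are among the genes that the study reported as upregulated from these same arrays. Their rise is therefore no independent result, and the median and sums of the list rest partly on them. All 9 forebrain markers on the array were well above background on all 8 arrays, with summed levels of 150 to 238 with DMSO and 145 to 243 with DAPT. The arrays of a condition differed far more in blood markers, with summed levels of 3.33 to 253 with DMSO and 4.76 to 217 with DAPT. Heart muscle markers summed to 2.46 to 20.2 with DMSO and 3.68 to 23.0 with DAPT. The part of the neuron genes, or of these other tissues, in any receptor difference below was not tested.

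Detection came first, because many receptor genes were close to the background of the array. A gene entered the test when all 4 DMSO arrays or all 4 DAPT arrays had its probe well above background, and 34 of the 53 genes passed (64.2%), against 66.2% of all genes. On all 8 arrays 30 genes were well above background (56.6%), against 60.9% of all genes. The 34 were 7 of 10 GABA-A genes, 4 of 4 alpha-adrenergic, 4 of 4 dopamine, 4 of 7 nicotinic, 3 of 3 kainate, 3 of 6 serotonin, 2 of 3 muscarinic, 1 of 5 metabotropic glutamate, 1 of 3 AMPA, 1 of 2 NMDA and 1 of 1 glycine genes, and the 3 genes that are not receptor subunits. The single GABA-B gene, GABBR2, and the single delta gene, GRID1, were not tested.

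**Figure D1:**
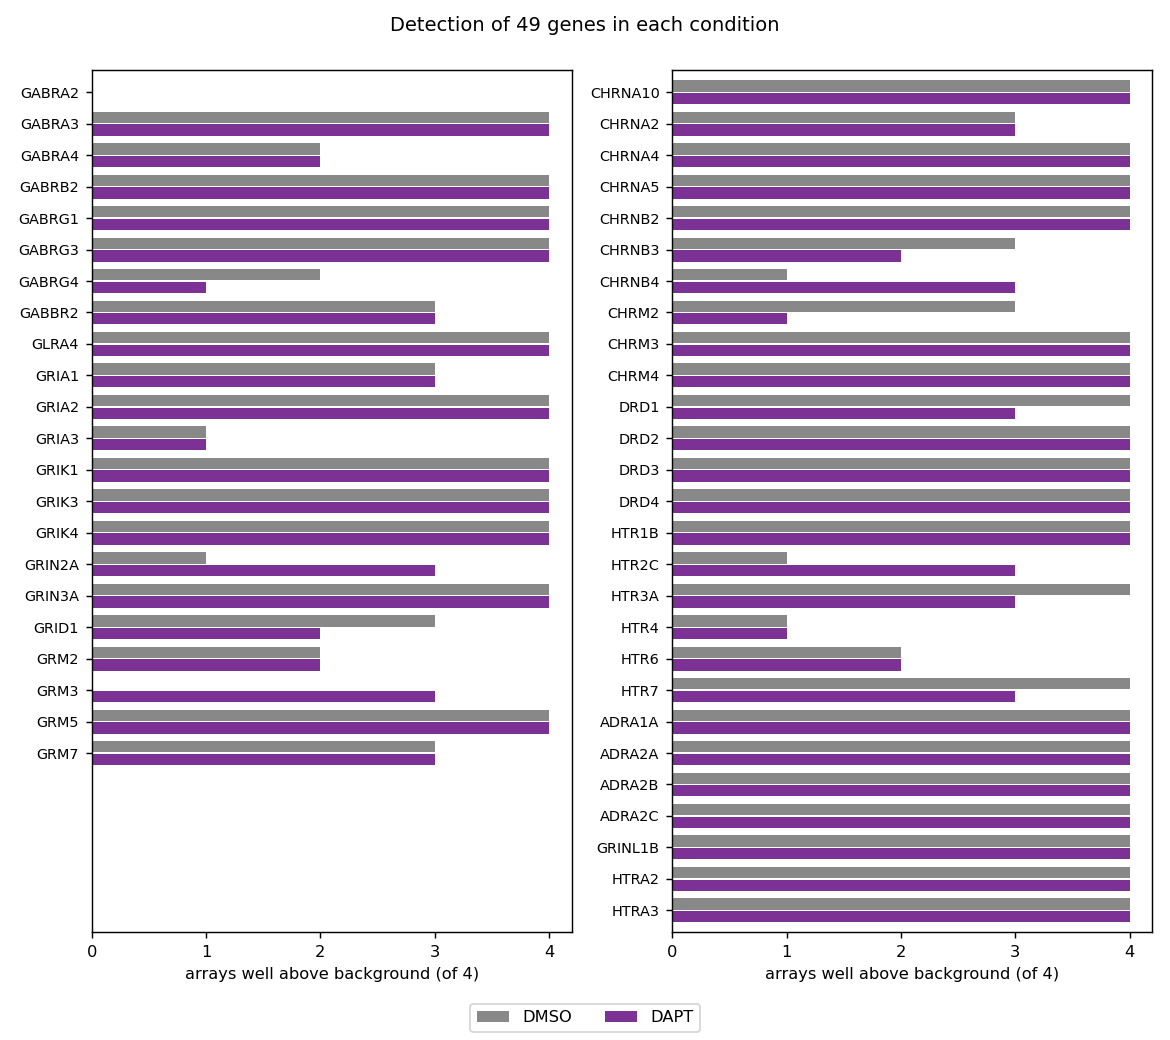
Number of arrays, of 4 per condition, on which the brightest probe of 49 of the 53 genes was well above background, with a grey bar for DMSO and a purple bar for DAPT. GABRA2 has no bar in either condition, and GRM3 has a bar of 3 for DAPT and none for DMSO.

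Of the 19 genes that were not tested, GABRA2, a GABA-A alpha subunit, was the only one with no array well above background. GABRA4 was above on 2 arrays of each condition, and GABRG4, a gamma subunit of birds that the RefSeq table calls GABRE, on 2 DMSO arrays and 1 DAPT array. Among the AMPA subunits GRIA1 was above on 3 arrays of each condition and GRIA3 on 1 of each. Among metabotropic glutamate receptors GRM2 was above on 2 arrays and GRM7 on 3 arrays of each condition. CHRNB4 (a nicotinic beta subunit), GRIN2A (an NMDA subunit) and HTR2C (a serotonin receptor) were each above on 1 DMSO array and 3 DAPT arrays. CHRM2, the muscarinic receptor of heart and brain, was above on 3 DMSO arrays and 1 DAPT array. Its values were -1.42, -1.74, -2.89 and -4.10 with DMSO and -1.59, -1.87, -4.15 and -4.12 with DAPT, so the slides stood apart and the conditions did not.

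GRM3 was the single gene of the 53 whose detection differed by 3 arrays or more between the conditions. It encodes a metabotropic glutamate receptor that lowers cyclic AMP through an inhibitory G protein. Its levels were -3.79, -3.79, -3.53 and -4.04 with DMSO and -1.62, -2.41, -2.14 and -2.83 with DAPT. The DAPT arrays all lay above the DMSO arrays and DAPT arrays 1, 3 and 4 were well above background while none of the DMSO arrays was. DMSO values under the lowest signal well above background on their array were raised to that signal. The mean with DAPT was then 2.0-fold higher, or 2.07-fold higher when DAPT array 2 was left out. This is no strict lower bound, because the value of DMSO array 3 already lay above that signal and was kept. When no filter on dim probes was applied, the limma test gave an adjusted p of 0.16 for GRM3. The exact two-sided permutation test over the 70 splits of the 8 arrays gave p = 0.0286, which is the smallest p that 4 against 4 arrays allow. Every gene whose conditions do not overlap gets this exact p, so here and below it only restates the lack of overlap. Over the whole array 28 of 28744 genes (0.0974%) were above background on no DMSO array and at least 3 DAPT arrays, and 13 (0.0452%) on no DAPT array and at least 3 DMSO arrays.

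Over the 34 tested genes, 0 rose and 0 fell with DAPT in the main limma fit at a Benjamini-Hochberg adjusted p under 0.05 over all 31504 tested probes. Of all 19035 genes tested, 0.0998% rose and 0.0368% fell. At an unadjusted limma p under 0.05 there were 3 of the 34 (8.82%), against 2.58% of all genes, and GRIK3 and CHRM4, which were higher, are described below. With slide as a block 7 of the 34 (20.6%) had an unadjusted limma p under 0.05, against 6.67% of all genes. After adjustment 0 passed, against 0.499% of all genes. A block on array number pairs each DMSO array with the DAPT array of the same number. With it 8 of the 34 (23.5%) had an unadjusted limma p under 0.05, against 8.82% of all genes. After adjustment 0 rose and 1 fell, where 0.441% of all genes rose and 0.257% fell.

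The signs of the differences were mixed, with 19 positive and 15 negative. Without DMSO array 3, or with array weights, by which limma counts noisier arrays less, they were 13 positive and 21 negative. The weights were estimated without slide, so the spread between slides counted as noise. They were 2.003, 4.185, 0.417 and 0.47 with DMSO and 0.863, 0.907, 0.587 and 1.321 with DAPT. The weighted DMSO mean thus leaned on slide 1, and weighted differences are not balanced over the slides. In the main fit the median log2 difference was 0.02, beside -0.01 over all tested genes, and the median size without sign was 0.18, beside 0.11. A difference of at least 1.3-fold was seen upward in 5 genes (14.7%, against 4.19% of all genes) and downward in 3 (8.82%, against 4.76%). With array weights these numbers were 4 upward and 6 downward, against 8% and 11% of all genes. In the fit without a block, the standard errors of the differences ran from 0.16 to 0.49 with a median of 0.24. They include the spread between the slides, as do the SE values given for single genes below unless a block is named. The 4 arrays of each condition did not overlap in 3 of the 34 genes (8.82%, against 1.87% of all genes), among them CHRM3, which was lower, and CHRM4, which was higher. Without DMSO array 1 or without DAPT array 3 this number was 5 (14.7%), against 3.19% and 3.56% of all genes. With the 75th percentile or with normexp it was 2 (5.88%), against 2.10% and 2.06%.

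**Figure D2:**
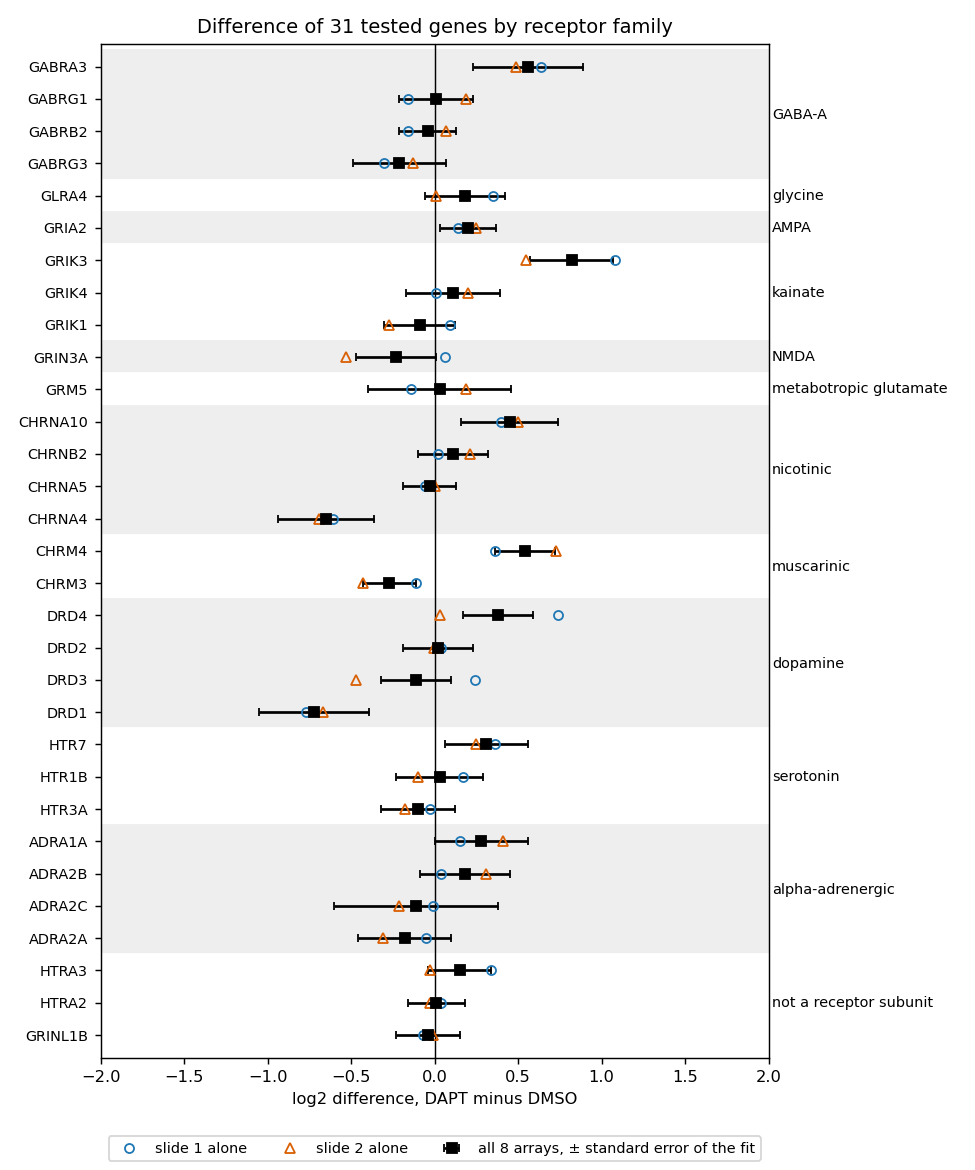
Log2 difference between DAPT and DMSO (horizontal axis) for 31 of the 34 tested genes, grouped by family at the right. Black squares with bars are the difference over all 8 arrays with its standard error, blue circles and orange triangles the differences on slide 1 and slide 2 alone. DRD1 is farthest to the left at -0.72 and GRIK3 farthest to the right at 0.82, and GRIK1, GRIN3A and DRD3 are among the genes whose circle and triangle lie on opposite sides of 0.

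The GABA-A receptor is the chloride channel of GABA, made of alpha, beta and gamma subunits among others. GABRA3, an alpha subunit that is prominent in the developing brain of rodents, was at -0.70, -0.23, 0.55 and 0.47 with DMSO and at 0.24, 0.11, 1.11 and 0.89 with DAPT. The conditions overlapped because both moved with the slide. Within slide 1 and within slide 2 each DAPT array lay above each DMSO array. Of all genes, 26.2% had conditions that did not overlap, in either direction, on slide 1 alone and 29.6% on slide 2 alone. The share of all genes that separated in the same direction on both slides was not computed, here or for the genes below. The log2 difference of GABRA3 was 0.56 (SE 0.33; limma p = 0.12, adjusted p = 1; exact permutation p = 0.2), 0.64 on slide 1 and 0.49 on slide 2. Without DMSO array 1 it was 0.32 and with array weights 0.85. With slide as a block its SE was 0.15 and its limma p 0.00321 (adjusted p = 0.297). Its second probe gave 0.58.

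GABRB2, a beta subunit, was measured by 4 tested probes with differences from -0.24 to -0.04. The gamma subunits GABRG1 and GABRG3 had differences of 0.01 and -0.21. GLRA4, an alpha subunit of the glycine receptor, the other chloride channel, was at -0.30, -0.06, 0.15 and 0.65 with DMSO and at 0.31, 0.04, 0.65 and 0.18 with DAPT, with a log2 difference of 0.18 (SE 0.24; adjusted p = 1) that ran from 0.04 without DMSO array 1 to 0.36 without DMSO array 4.

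**Figure D3:**
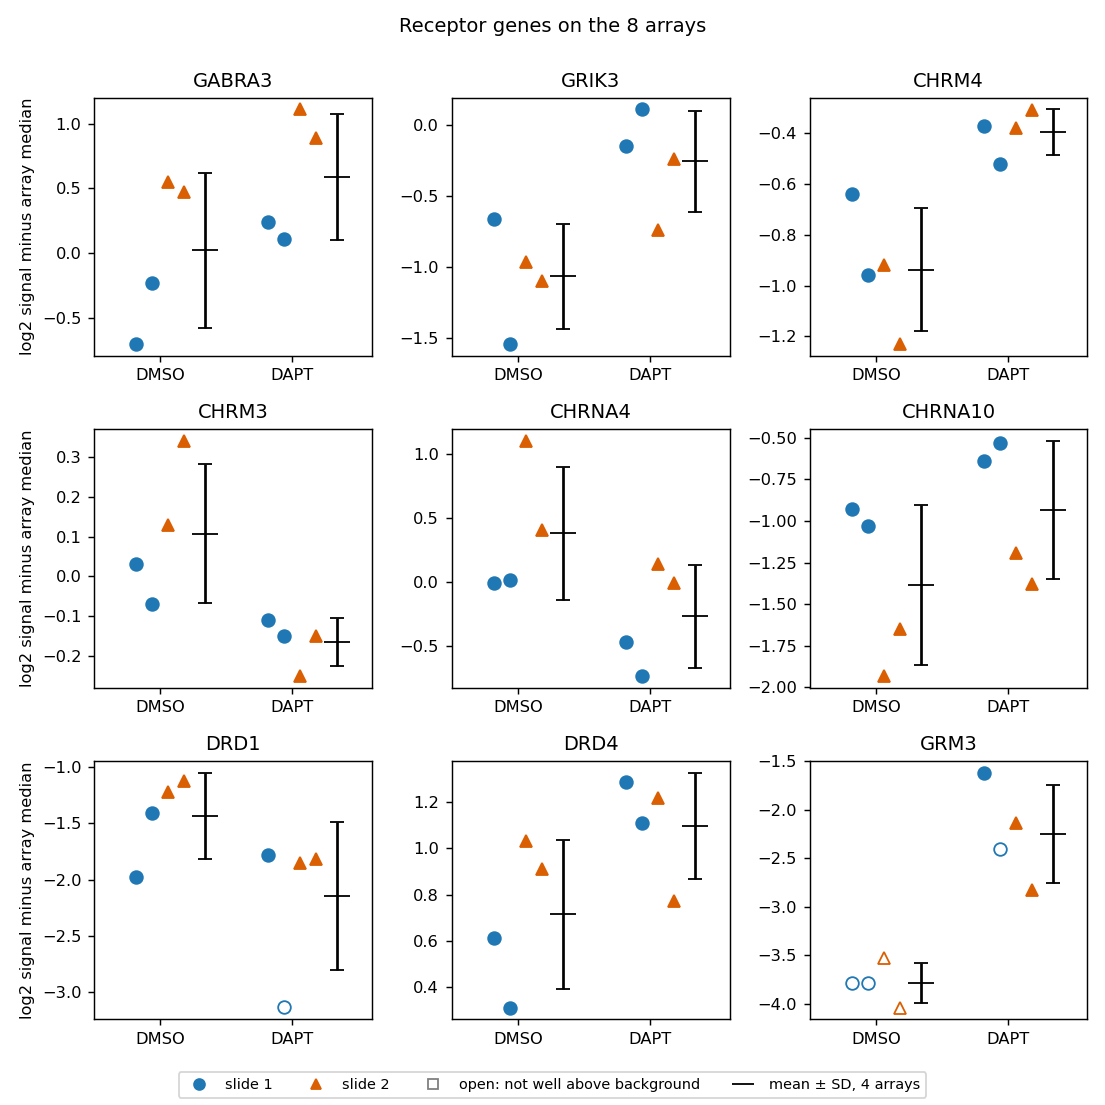
Levels of 9 receptor genes on each array, as log2 signal minus the array median, with blue circles for slide 1 and orange triangles for slide 2, open where the probe was not well above background, and a bar for the mean ± SD of 4 arrays. Each panel has its own vertical scale. DMSO and DAPT do not overlap for CHRM4, CHRM3 and GRM3, and for GABRA3, GRIK3, CHRNA4 and CHRNA10 they separate only within each slide.

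Among the ionotropic glutamate receptors, the cation channels of excitatory transmission, the kainate subunit GRIK3 had the largest difference. It stood at -0.66, -1.54, -0.96 and -1.1 with DMSO and at -0.15, 0.11, -0.74 and -0.24 with DAPT. Only DMSO array 1 and DAPT array 3 overlapped, and these lay on different slides. The log2 difference was 0.82 (SE 0.25; limma p = 0.00768, adjusted p = 1; exact permutation p = 0.0571), with 1.08 on slide 1, 0.55 on slide 2 and 0.70 without DAPT array 2. Blocked by slide, its adjusted p was 0.298. The other kainate subunits had differences of 0.11 (GRIK4) and -0.09 (GRIK1), whose 3 tested probes ran from -0.70 to -0.09. The difference between subunits was not tested.

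GRIA2, the AMPA subunit whose edited form keeps calcium out of the channel, was at 0.01, 0.39, -0.04 and 0.09 with DMSO and at 0.46, 0.23, 0.38 and 0.17 with DAPT, which overlap. Its log2 difference was 0.20 (SE 0.17; adjusted p = 1), and 4 tested probes gave 0.05 to 0.58. GRIN3A, an NMDA subunit that reduces calcium entry in mammals, was at 0.35, 0.58, 1.19 and 0.95 with DMSO and at 0.65, 0.40, 0.88 and 0.20 with DAPT. Its difference of -0.23 (SE 0.24; adjusted p = 1) was 0.06 on slide 1 and -0.53 on slide 2, and -0.09 without DMSO array 3. GRM5, a metabotropic receptor that signals through phospholipase C and calcium, was at -1.11, -1.30, -2.59 and -2.65 with DMSO and at -1.28, -1.40, -2.42 and -2.44 with DAPT. The slides were apart for GRM5 and the conditions were not, with a difference of 0.03 (SE 0.43, or 0.14 with slide as a block) that turned to -0.50 with array weights.

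Both muscarinic receptors tested had conditions that did not overlap, with opposite signs. CHRM4, which inhibits adenylyl cyclase, was at -0.64, -0.96, -0.92 and -1.23 with DMSO and at -0.37, -0.52, -0.38 and -0.31 with DAPT. The DAPT arrays lay close together and above all DMSO arrays, the nearest of the conditions being -0.52 and -0.64. With arrays centred on their 75th percentile, 0 of the 34 tested genes had all DAPT arrays above all DMSO arrays. The separation of CHRM4 thus depended on the normalization. The log2 difference was 0.54 (SE 0.18; limma p = 0.0119, adjusted p = 1; exact permutation p = 0.0286), and the adjusted p was 0.366 with slide as a block. CHRM3, which acts through phospholipase C, was at 0.03, -0.07, 0.13 and 0.34 with DMSO and at -0.11, -0.15, -0.25 and -0.15 with DAPT. The gap between the nearest arrays of the conditions was small, and the difference of -0.27 (SE 0.16; limma p = 0.124, adjusted p = 1; exact permutation p = 0.0286) was -0.11 on slide 1 and -0.43 on slide 2. For both genes the exact permutation p follows from the lack of overlap, which is also a rule by which genes were named. Without DAPT array 2 the differences of CHRM4 and CHRM3 were 0.58 and -0.28.

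Nicotinic receptors are cation channels of several subunits, and in the brain of vertebrates the pair of CHRNA4 and CHRNB2 forms the most common type. CHRNA4 was at -0.01, 0.02, 1.1 and 0.41 with DMSO and at -0.47, -0.73, 0.14 and -0.01 with DAPT. On each slide both DAPT arrays lay below both DMSO arrays. The difference of CHRNA4 was -0.65 (SE 0.29; limma p = 0.0514, adjusted p = 1; exact permutation p = 0.143), with -0.61 on slide 1 and -0.69 on slide 2. But it was -0.41 without DMSO array 3, -0.49 without DAPT array 2 and -0.37 with array weights. With slide as a block the SE was 0.17 and the limma p 0.00275 (adjusted p = 0.269). With array number blocked they were 0.15 and 0.00126 (adjusted p = 0.131). CHRNB2 had a difference of 0.11 and CHRNA5, an accessory subunit, of -0.03.

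CHRNA10, known as a subunit of the nicotinic receptor of hair cells, was at -0.93, -1.03, -1.93 and -1.65 with DMSO and at -0.64, -0.53, -1.19 and -1.38 with DAPT. As for GABRA3, both conditions moved with the slide and the DAPT arrays lay above the DMSO arrays of the same slide. This gave a log2 difference of 0.45 (SE 0.29; limma p = 0.147, adjusted p = 1; exact permutation p = 0.2), and a second probe gave 0.26. With slide as a block the SE was 0.14 and the limma p 0.00718 (adjusted p = 0.445). The difference was 0.27 without DMSO array 3, 0.31 without DAPT array 2 and 0.13 with array weights.

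The dopamine receptors fall into those that stimulate adenylyl cyclase (DRD1) and those that inhibit it (DRD2, DRD3, DRD4). DRD1 was at -1.98, -1.41, -1.22 and -1.12 with DMSO and at -1.78, -3.14, -1.85 and -1.82 with DAPT. DAPT array 2 stood far below the others and was not well above background. The difference of DRD1 was -0.72 (SE 0.33; limma p = 0.0559, adjusted p = 1; exact permutation p = 0.114), and -0.38 without DAPT array 2. DRD4 was at 0.61, 0.31, 1.03 and 0.91 with DMSO and at 1.29, 1.11, 1.22 and 0.77 with DAPT, a difference of 0.38 (SE 0.21; limma p = 0.101, adjusted p = 1; exact permutation p = 0.114) that was 0.74 on slide 1, 0.03 on slide 2 and 0.25 without DMSO array 2. Its second probe gave 0.37. DRD2 and DRD3 had differences of 0.02 and -0.11.

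Differences of the tested serotonin and alpha-adrenergic receptors lay between -0.18 and 0.31. HTR7, a serotonin receptor that raises cyclic AMP and is listed as HTR7L in the RefSeq table, was at -2.59, -1.88, -2.29 and -1.92 with DMSO and at -1.53, -2.21, -2.22 and -1.48 with DAPT, with a difference of 0.31 (SE 0.25; adjusted p = 1) that was 0.17 without DMSO array 1 and 0.42 without DAPT array 2. HTR1B and the ion channel subunit HTR3A had differences of 0.03 and -0.10. HTR7 and HTR3A were not well above background on DAPT array 2. ADRA1A, which acts through phospholipase C, was at -2.03, -1.64, -2.92 and -2.26 with DMSO and at -1.66, -1.72, -2.30 and -2.06 with DAPT, with a difference of 0.28 (SE 0.28; adjusted p = 1) that was -0.05 with array weights and 0.04 without DMSO array 3. ADRA2A, ADRA2B and ADRA2C, which lower cyclic AMP, had differences of -0.18, 0.18 and -0.11. The brightest probe of ADRA2B is listed as ADRA2BL2 in the RefSeq table. The genes that are not receptor subunits had differences of -0.04 (GRINL1B), 0.01 (HTRA2) and 0.15 (HTRA3), with standard errors of 0.19, 0.17 and 0.19.

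Of the 34 tested genes, 15 had more than 1 tested probe, and in 13 of them all tested probes had the same sign. The exceptions were ADRA2C, with -0.11 and 0.02, and GRINL1B, with probes from -0.04 to 0.16. The probes of a gene were read from the same RNA and are no further replicates.

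**Figure D4:**
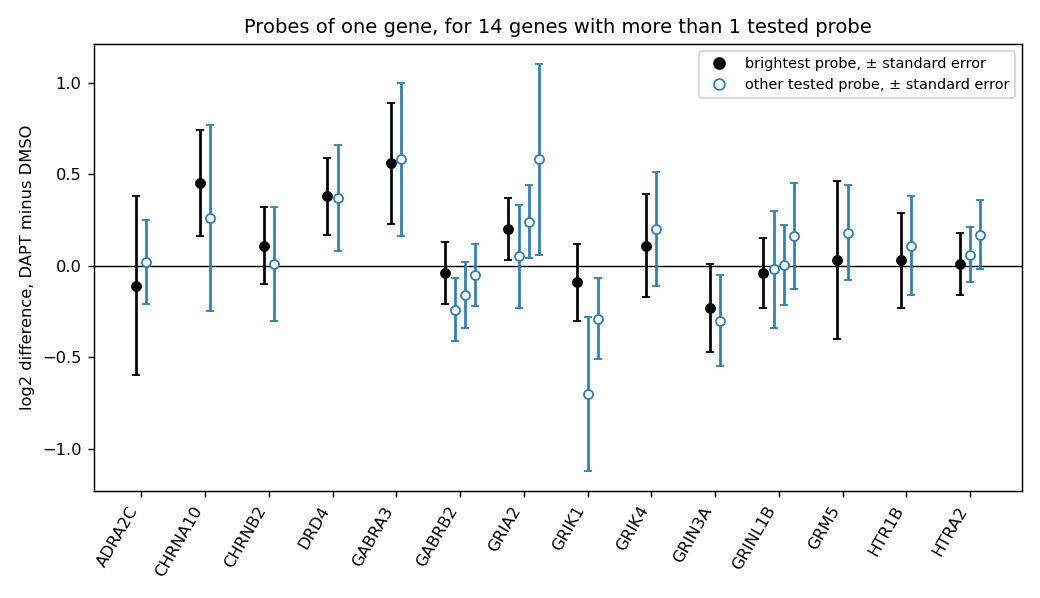
Log2 difference between DAPT and DMSO with its standard error (vertical axis) for each tested probe of 14 of the 15 genes that had more than 1, with the brightest probe filled in black and the others open. The probes of GABRA3 lie at 0.56 and 0.58 and those of GRIK1 between -0.70 and -0.09.

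The slides separated the receptor genes more often than the conditions did. In 11 of the 34 genes (32.4%) the 4 arrays of slide 1 and the 4 of slide 2 did not overlap, against 40.9% of all tested genes. Slide 2 was lower in 9 of the 34 (26.5%, against 16.9% of all tested genes) and higher in 2, GABRA3 and GRIK4 (5.88%, against 24.0%). The largest slide difference was that of the brightest probe of ADRA2C. It was at 0.29 and 0.41 with DMSO and 0.32 and 0.36 with DAPT on slide 1, and at -1.36 and -0.58 with DMSO and -1.21 and -1.15 with DAPT on slide 2. The slides overlapped for the other tested probe of ADRA2C. That probe was at -0.71, -0.38, -0.53 and -0.88 with DMSO and at -0.41, -1.18, -0.33 and -0.52 with DAPT. The median size of the slide difference was 0.29 on the log2 scale over the 34 genes, beside 0.40 over all tested genes, and it exceeded the DAPT difference in 22 of the 34, against 81.0% of all tested genes. By their brightest probes, all 4 alpha-adrenergic genes were lower on slide 2, by 0.62 to 1.42. What else the arrays of a slide shared is not given in the sources used here.

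**Figure D5:**
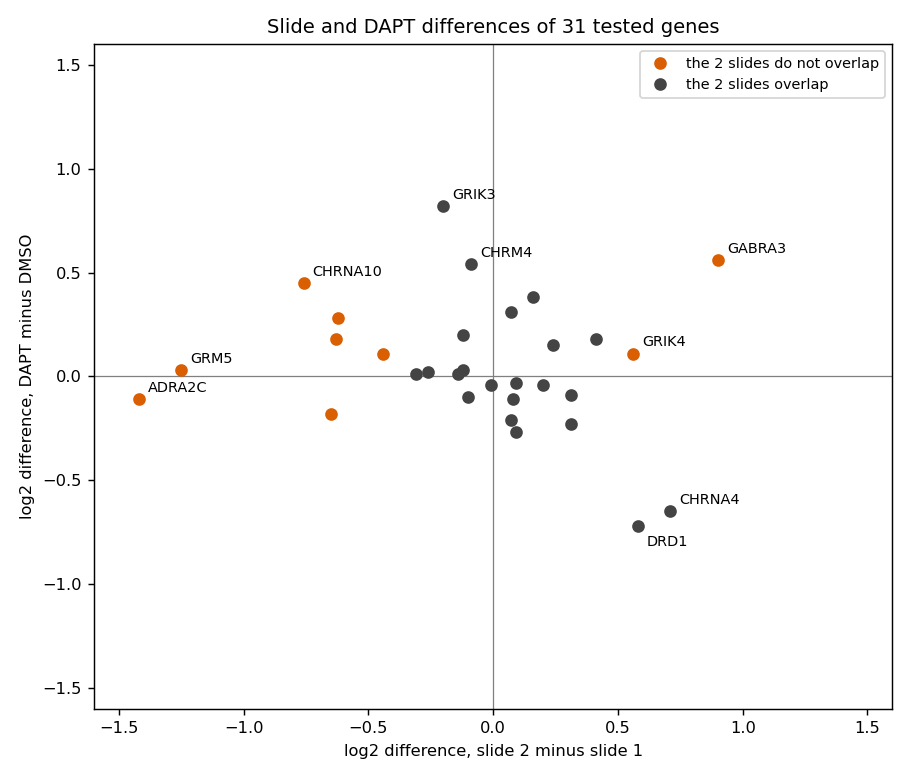
Difference between slide 2 and slide 1 (horizontal axis) and between DAPT and DMSO (vertical axis), both on the log2 scale, for 31 of the 34 tested genes, in orange where the arrays of the slides do not overlap. Each gene is drawn by its brightest probe. ADRA2C and GRM5 lie far to the left with DAPT differences of -0.11 and 0.03, and GRIK3 and CHRM4 lie near the vertical line with slide differences of -0.20 and -0.09.

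In 22 of the 34 genes the difference had the same sign on both slides. The difference between slides in the response to DAPT was tested as an interaction in limma over all 31504 probes. It was called for 0 of the 34 genes, and 0 had an unadjusted p under 0.05, against 0 and 733 of the 31504 probes. At so small a share of all probes, 0 among 34 genes does not set these genes apart from the rest. The lowest unadjusted limma p of the 34 was 0.0552, for DRD4.

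The genes that work with these receptors were counted from lists written for this tissue. Of 33 tested genes for auxiliary subunits, scaffolds and clustering factors, 0 passed in either direction, with 15 positive differences and a median of -0.01, and 3 had an unadjusted limma p under 0.05 (9.09%, against the 2.58% of all genes given above), or 6 (18.2%) with slide or array number as a block. Of 21 tested genes for the synthesis, transport and breakdown of transmitters, 0 passed, with 11 positive differences and a median of 0.05. Of these, 1 had an unadjusted p under 0.05 (4.76%), or 2 (9.52%) with either block. The shares of all genes under the blocks were 6.67% with slide and 8.82% with array number. The vesicular glutamate transporter gene SLC17A6 and the serotonin transporter gene SLC6A4 were above background on no array, and CHAT, the enzyme that makes acetylcholine, on 1 DAPT array. TH, the enzyme that limits dopamine synthesis, was above on 2 DMSO arrays and 3 DAPT arrays.

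Of 11 tested genes for receptors outside the spelling rule, 0 passed in the main fit and ADORA1 passed once slide or array number was a block. ADORA1, the adenosine receptor that lowers cyclic AMP, was at -2.77, -2.76, -2.03 and -1.72 with DMSO and at -1.06, -1.16, -1.38 and -0.53 with DAPT, so the conditions did not overlap. Its log2 difference was 1.29 (SE 0.29; limma p = 0.00115, adjusted p = 0.345; exact permutation p = 0.0286), and the adjusted p was 0.0263 with slide and 0.00958 with array number blocked. The difference was 1.66 on slide 1 and 0.92 on slide 2. With normexp, an alternative background correction, it was 0.63 (limma adjusted p = 0.873). The list had 8 positive differences and a median of 0.11.

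The array also held 24 probes that carry no symbol in the deposited report and that the RefSeq table names as receptors by the same spelling, for 17 genes. For 9 of these 17 no other probe had been taken, among them GRIN1, the subunit that every NMDA receptor contains, GRIA4 and CHRNA7. No probe of them was well above background on more than 2 arrays, 18 were above on none, and 0 passed the filter.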

How the data were processed

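The authors deposited, for each of the 8 arrays, the image analysis output of Agilent Feature Extraction 10.7.1.1, whose background-corrected signals are intensity values that were not yet normalized. The authors further deposited a report with condition means, as raw intensity and as log2 signal after their 50th percentile normalization per chip. Only its probe names and gene symbols were used here. A list with the authors' fold changes was not used. The number of per-sample columns left unused in the tables of the whole series was 0. Slide and array number came from the names of the deposited arrays.

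Control spots and spots marked as non-uniform or population outliers were left out (13 to 44 spots per array). Log2 signals were averaged per probe, and the array median over the 43803 spots was subtracted, as in the study's methods. The fit was made in R 4.3.3 with limma 3.58.1 (lmFit and eBayes, two-sided, no block) on the 31504 probes that passed the filter. Benjamini-Hochberg adjustment ran over these probes. The fit was also tried on simulated data, which held no spread between slides and so cannot check the fit where slides differ. Python 3.11.15, pandas 2.3.3, numpy 2.4.6 and matplotlib 3.10.9 served for tables and figures. A gene was represented by its brightest probe, and the RefSeq table of GRCg7b served only for names. The number of arrays limits the precision.

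After centring each probe within its condition, same-numbered arrays of the conditions correlated at 0.679, 0.569, 0.767 and 0.505. Only the fit with array number as a block took the numbers to pair the arrays, and the main fit did not use them. Pairs share a slide, and differently numbered arrays of a slide correlated at 0.419 to 0.675. These correlations therefore do not separate pairing by number from a shared slide.

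Named are the receptor genes that passed in the fit without a block or with slide or array number as a block, the 10 with the lowest p, the one with the largest difference in each family, those whose conditions did not overlap or whose detection differed by at least 3 arrays, the genes that are not receptor subunits, and genes of the lists that passed in these fits. Other genes named with values were chosen after their values were seen. The members, lists and rules were chosen with earlier results of these data known. Alternatives were the 75th percentile, quantile normalization, normexp with an offset of 50, other filters, outlier spots kept, the mean over probes, slide or array number as a block, array weights, each slide alone and each array left out. A few of the genes are counted but not reported singly here.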

Additional observations from a re-analysis of the deposited data

Results flagged for a closer look

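DRD1 on DAPT array 2 stood at -3.14, far from the other DAPT arrays, which lay between -1.85 and -1.78. The gap to the nearest of them was 0.947 of the whole range of the 4 arrays, above the 95% critical value of Dixon's test for 4 values. This probe was not well above background on that array, which also had the brightest negative control spots. It was the single such case among 38 sets of 4 arrays, from 19 named genes and 2 conditions, where chance gives about 1 in 20.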

How the results depend on the processing

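Over 20 alternatives, 0 tested receptor genes rose, and 0 fell except with array number as a block (the replicate block), where 1 did. The replicate block changed no other call among the receptor genes. Receptor genes whose conditions did not overlap numbered 3, 12 with slide 1 only (35.3%, against 26.2% of all genes) and 13 with slide 2 only (38.2%, against 29.6%). When an array was left out they numbered 3 to 5 (5 without DMSO array 1 or DAPT array 3). Their number fell to 2 with the 75th percentile (5.88%, against 2.10%) and with normexp (5.88%, against 2.06%). It was also 2 among genes well above background on all 8 arrays (6.67%, against 1.74%). Quantile normalization gave 4 (11.8%, against 2.33%), as did no filter on dim probes (7.55%, against 1.68%). The median difference ran from -0.06 (array weights) to 0.09 (without DAPT array 4). Among receptors outside the rule 1 gene passed with slide as a block, the replicate block, array weights or slide 1 only, against 0. Neuron genes that passed numbered 4, with 1 when no filter was applied, 7 with slide as a block, 8 with the replicate block and 1 to 4 when an array was left out (1 without DMSO array 1 or any one DAPT array, 2 without DMSO array 3). Of the 34 tested genes 14 kept the sign of their difference in every alternative that tested them and 20 did not, with 10 signs turned by array weights, 6 on each slide alone, 4 with normexp, 1 as the mean over probes and 2 to 6 when an array was left out. Among the genes named by rule the sign turned for ADRA1A with array weights (-0.05), GRIN3A on slide 1 (0.06), HTRA3 on slide 2 (-0.03) and GRINL1B as the mean over probes (0.02). GRM5 was -0.50 with array weights and -0.14 on slide 1, and HTRA2 was -0.03 with normexp, -0.06 with array weights and -0.03 on slide 2. Without 1 array, GRINL1B ranged from -0.15 to 0.07, GRM5 from -0.22 to 0.29 and HTRA2 from -0.07 to 0.05. Of the differences that kept their sign, normexp gave -0.18 for DRD1, -0.13 for CHRM3, 0.34 for CHRM4, 0.29 for CHRNA10 and 0.11 for GRIA2, and array weights -0.16 for CHRM3, 0.05 for GRIA2 and 0.32 for GLRA4. The cause of these changes was not tested. None of these genes passed the test in any setting.

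Normexp on the mean spot signal was not run, because the files used here hold the median spot signal. It was run on that, an alternative chosen after seeing the data, without 12 array values whose local background was over 10 times the median of the array. Signal over background limits the dim genes: 19 of 53 were not tested, and tested genes such as DRD1, HTR7 and HTR3A were not well above background on DAPT array 2.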
